A study of Mus musculus with 18 samples.

Results

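The change of gene expression in wild-type mouse footpad skin between postnatal days 10 and 14 (P10 and P14) was described over probes that detected a transcript in these samples. A probe was included when its skin signal was well above background, by the scanner software's own mark, on at least 3 of the 6 arrays of these ages, whichever age they came from. This held for 23823 of the 42006 probes of the array. Just inside this limit, 1023 probes had the mark on 3 arrays, with a median Cy3 level of 110, and just outside it 1218 had it on 2 arrays, with a median of 100.4. The skin was hairless skin of the fore footpad from wild-type littermates of FoxA1 knockout mice, strain C57BL/6, sex given as mixed, 3 animals at P10 and 3 at P14. No treatment or transgene is given for these mice. The knockout groups (FoxA1 knockout, P10, P14 and P31) and the wild type at P31, 3 arrays each, bring the series to 18 arrays in 6 groups. They are described below only for comparison, but the model was fitted to all 18 arrays, so they share in the estimate of spread behind each test. The design text calls the animals embryos, although the ages are postnatal. It gives neither the FoxA1 allele nor how the gene was removed.

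In the mouse, eccrine sweat glands lie in the footpads and not in the haired skin. They form as buds of the epidermis that grow down, coil and mature after birth, so a whole piece of footpad holds epidermis, gland, dermis, vessels, nerve and muscle at once. In such bulk samples, fewer cells of a type and less RNA per cell cannot be told apart. On each array the skin RNA, labelled with Cy3, competed with a Cy5-labelled reference for probes of 60 bases. That reference mixed RNA of embryonic stem cells with RNA pooled from 11 cultured lines. Every value called a log2 ratio is the skin signal over that reference. A change is the mean log2 ratio at P14 minus that at P10.

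The scanner files give no gene name, description or position for any probe, so transcripts are called by their probe and shown by their sequence. The lists of sweat gland, epidermal, muscle and other genes drawn up for this comparison, and the markers of the cell types a footpad can hold, could therefore not be matched to probes as lists, and the labelled tissue was not checked against markers. Placing probes in RefSeq promoter windows, described later, gave a gene for 74 tested probes, of which 2 stood on a prepared list. The sequences below are those of the array design, 5′ to 3′. The first pair belongs to probes of the 5 largest falls, and capitals mark bases that are identical at the same place when the second is shifted by 13 bases against the first.

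Z00030864-1: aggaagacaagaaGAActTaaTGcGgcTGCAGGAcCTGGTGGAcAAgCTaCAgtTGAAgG
Z00039540-1: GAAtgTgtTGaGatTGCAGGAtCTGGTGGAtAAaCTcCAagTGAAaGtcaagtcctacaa

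Over the 47 bases in which they overlap, 33 are identical (70.2%), among them 24 of 30 in the closest stretch. No other probe of the array had 23 or more of 30 bases in common with either of these. Among the other 8 of the 10 largest changes, 1 had such a relative, and that relative did not pass (change 0.16). Probes of the 2 largest rises are shown whole, and no bases are marked in them.

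Z00026161-1: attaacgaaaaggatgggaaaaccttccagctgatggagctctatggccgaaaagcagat
Z00031175-1: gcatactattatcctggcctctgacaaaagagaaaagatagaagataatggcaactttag

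The first 30 bases identify the other probes of the 10 largest changes, again with no bases marked.

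Z00034035-1: tacacatattgtcttgtgttgctggtgcca
Z00074237-1: gtggctcctgacaattctacttaatttcca
Z00036428-1: tactccaaagacagatctttctatttaaat
Z00030171-1: ccttgtgggtcatgaattctctgtacccct
Z00027115-1: cctaggataactcatcaagaatcaaagact
Z00028372-1: tgccaccctctcacctcaaccttgatggta

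The arrays of the 2 ages differed in brightness. The share of probes well above background was 55.4% to 59.6% at P10 and 53.3% to 57.5% at P14. The median Cy3 brightness was 146 to 177 at P10 and 114 to 139 at P14, and the median local background was 44 to 52 over the 6 arrays. Saturated spots were absent from both channels. All 3 arrays of P10 were on slide 2, P14 replicate 1 was on slide 3 and P14 replicates 2 and 3 were on slide 4. No slide held both ages, so that slide and age cannot be told apart in the wild type. Across the tested probes, the log2 ratios of arrays of the same age correlated at 0.971 to 0.986 and those of different ages at 0.930 to 0.971, across probes, which are not independent replicates. These ranges overlap, since P10 replicate 1 correlated at 0.9713 with P14 replicate 2 and at 0.9709 with P10 replicate 3.

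Many probes differed between the wild-type arrays of these ages, and with the scaling used here more were lower than higher at P14. After 16 probes with an outlier spot on any array were left out, 23807 were tested, and 1866 passed an adjusted p under 0.05 with a fold over 1.5 (7.84%), or 2139 when the 6 arrays were fitted alone. At P14, 665 were higher (2.79%) and 1201 were lower (5.04%), by limma with Benjamini-Hochberg adjustment over all tested probes. An unadjusted p under 0.05 was found for 8120 (34.1%). The median change was 1.66-fold among the rises and 1.71-fold among the falls, and 98 rises and 244 falls were over 2-fold. Changes over 4-fold were seen for 5 rises and 6 falls. The median over all tested probes was a log2 change of 0.01, and the 3 arrays of one age lay wholly on one side of the other 3 for 9583 probes (40.3%). This was so for 656 of the 665 rises and 1190 of the 1201 falls.

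The split between rises and falls moved with the scaling. Falls made up 64.4% of the calls as reported and 51.7% with the Cy3 channel alone, where 963 probes were higher and 1030 lower. With each array's ratios centred on the median in place of loess, falls made up 90.2%, with 18 probes higher and 166 lower. That centring placed the median of all tested probes at a log2 change of -0.15. By Cy3 alone, 663 of the 665 rises and all 1201 falls had the same direction as in the ratio, and 459 rises (69.0%) and 564 falls (47.0%) passed by themselves. None passed in the opposite direction. In the Cy5 channel, which holds the same reference RNA on every array, 20 of 23807 probes (0.084%) passed between the ages, and 2520 (10.6%) had an unadjusted p under 0.05. For 11 of the rises and 47 of the falls the Cy5 change was larger than the Cy3 change.

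Some arrays carried more of this difference than others. Over the 665 rises, the median distance from the mean of the 6 arrays was -0.27 on P10 replicate 1 and -0.42 on each of P10 replicates 2 and 3. It was 0.30, 0.27 and 0.55 on P14 replicates 1, 2 and 3. Over the 1201 falls, the corresponding medians were 0.21, 0.49 and 0.50 at P10, and -0.34, -0.32 and -0.53 at P14. P10 replicate 1 thus lay nearest to the other age in both sets and P14 replicate 3 farthest. Among the arrays of P10, replicate 1 was the one closest to the P14 mean for 64.2% of the rises and 76.4% of the falls. These probes were chosen on the same arrays, so the medians describe them and test nothing.

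The number that passed depended on which arrays entered the fit. It was 2806 without P10 replicate 1, 524 without P10 replicate 2, 725 without P10 replicate 3, 1706 without P14 replicate 1, 1872 without P14 replicate 2 and 533 without P14 replicate 3. Falls outnumbered rises in each of these. 384 probes passed in every one of these fits with the direction unchanged, 139 higher and 245 lower.

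By the rule used here, the falls described singly are the 5 largest among probes that passed, were well above background on all 6 arrays and did not overlap between the ages. Z00039540-1 fell from log2 ratios of 2.37, 2.84 and 1.93 at P10 to 0.09, -0.32 and 0.44 at P14. Each P14 array was below each P10 array by more than the spread within either age. The change was -2.31 (SE 0.247, adjusted p = 0.000217, limma) or 4.96-fold. The P31 arrays, at -0.84 ± 0.16 (SD, n = 3), lay lower still.

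Z00030864-1, whose sequence it partly shares, stood at 2.80, 3.25 and 2.57 at P10 and at 1.12, 0.24 and 1.17 at P14. The change was -2.03 (SE 0.279, adjusted p = 0.000909, limma) or 4.08-fold, with no overlap between the ages. At P31 it was -0.47 ± 0.47 (SD, n = 3). The letters they share do not make them 1 transcript, since 14 of the 47 overlapping bases differ, and cross-binding of related transcripts was not tested. In the Cy3 channel alone these probes changed by -2.97 and -2.48, and in the Cy5 channel by -0.45 each.

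Z00034035-1 read 0.84, 0.60 and 0.07 at P10 and -1.54, -1.82 and -1.87 at P14, a change of -2.25 (SE 0.312, adjusted p = 0.00098, limma) or 4.75-fold. Its mean Cy3 level was 24432 at P10 and 6176 at P14. Its values continued to -5.06 ± 0.49 (SD, n = 3) at P31. Between P10 and P14 the groups were well apart, and the knockout arrays showed 1.74, 1.61 and 0.36 at P10 and -2.19, -1.91 and -1.97 at P14.

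Z00074237-1 went from 2.33, 2.67 and 1.82 to 0.13, -0.11 and 0.53, a change of -2.09 (SE 0.272, adjusted p = 0.000705, limma), and was at -0.89 ± 0.49 (SD, n = 3) at P31. The order of its P10 arrays, with replicate 2 highest and replicate 3 lowest, was that of Z00039540-1 and Z00030864-1 too. Its sequence contains the letters AATAAA, the core of the common polyadenylation signal. Z00036428-1 differed from these in its later course. It read 1.24, 1.31 and 1.1 at P10, then -1.14, -0.49 and -0.82 at P14 (change -2.03, SE 0.413, adjusted p = 0.00814, limma), and at P31 2 of its 3 arrays were back above 0, at 0.33 and 0.15, with the other at -0.78. All 5 falls passed in Cy3 alone, with changes between -1.87 and -3.41.

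Rises were led by Z00026161-1, with log2 ratios of 2.52, 2.52 and 1.93 at P10 and 5.30, 5.60 and 4.57 at P14. The P14 arrays were all above the P10 arrays, at 2.83 (SE 0.597, adjusted p = 0.0095, limma) or 7.12-fold higher. Z00031175-1 was at 2.41, 2.31 and 1.59 and then 4.78, 4.86 and 4.19. It rose by 2.51 (SE 0.643, adjusted p = 0.022, limma) or 5.68-fold. In both probes replicate 3 was the lowest array at each age of the wild type.

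These probes also stood together outside the comparison. At P31 their lowest array was again replicate 3, with 3.06 for Z00026161-1 and 2.20 for Z00031175-1 against means of 3.99 ± 0.82 and 3.67 ± 1.27 (SD, n = 3). In the knockout at P10 they read 1.30, 1.18 and 4.11 for Z00026161-1 and 1.34, 0.79 and 3.60 for Z00031175-1, so that replicate 3 alone was near the level of P14. The likeness of the probes was noticed after their values were seen. Their sequences share no stretch at the limit used above, but probes on different parts of a transcript need not share bases. Whether they read the same transcript or related ones was not determined, so they are not counted as separate changes. The rise of Z00031175-1 did not pass without P10 replicate 2 or 3 or without any one of the P14 arrays, and its adjusted p ran from 0.0028 to 0.18 over all alternatives.

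Z00030171-1 rose from 2.37, 1.86 and 3.48 to 4.69, 4.81 and 4.87, a change of 2.21 (SE 0.321, adjusted p = 0.0012, limma) or 4.64-fold. Its P14 arrays had an SD of 0.09 and its P10 arrays one of 0.83 (n = 3 each). Z00027115-1 showed the reverse, with -0.56, -0.46 and -0.51 at P10 (SD 0.05) and 2.36, 1.57 and 1.11 at P14 (SD 0.64), and a change of 2.19 (SE 0.422, adjusted p = 0.00635, limma). On the slide of P14 replicate 1 its distance from the P10 mean was 2.87, and on the slide of replicates 2 and 3 it was 1.85.

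Z00028372-1 read 1.25, 2.74 and 1.15 at P10 and 4.02, 3.68 and 3.66 at P14 (change 2.07, SE 0.526, adjusted p = 0.021, limma). It was the one of the 5 rises for which the knockout change was small, at 0.30 (adjusted p = 0.74), though the difference between the genotypes did not pass (1.77, adjusted p = 1.00, unadjusted p = 0.030). Its call was lost without P10 replicate 3, without P14 replicate 1 or 3, with array quality weights and with median centring, and its adjusted p ran from 0.016 to 0.15 over all alternatives. For Z00030171-1 and Z00028372-1 the values in the Cy5 channel were 1.05 and 1.08, neither of which passed, and in Cy3 alone the changes were 2.97 and 2.98. At P31 the 5 rises had mean log2 ratios of 3.99, 3.67, 3.61, 1.22 and 2.94 in the order given here, each below its P14 mean and above its P10 mean.

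The same in-between position was common among the probes that passed. By the mean at P31, 353 of the 665 rises (53.1%) lay between their P10 and P14 means, 284 (42.7%) lay beyond P14 and 28 (4.21%) had returned to or past P10. Of the 1201 falls, 758 (63.1%) lay between, 405 (33.7%) lay beyond and 38 (3.16%) had returned. The probes were chosen for their difference between P10 and P14, so these shares carry no test.

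Detection was compared apart from size. Of the 23807 tested probes, 20859 were well above background on all 6 arrays. Only 12 (0.0504%) were so on all 3 arrays of P14 and on none of P10, while 354 (1.49%) were so on all 3 of P10 and on none of P14. The P14 arrays were the dimmer ones, as given above, and the part of this in the excess of lost probes was not tested. Most of these probes were near background. Their median Cy3 level at the age of detection was 132 for the 12 and 127 for the 354. The lowest level called well above background ran from 86.0 to 106 over the 6 arrays. Of the 12, 3 passed the test, and of the 354, 37 passed (10.5%), against 7.84% of all tested probes in either direction, 2.79% higher and 5.04% lower. These probes met the filter only through the age at which they were detected. Their shares and the adjusted p values given for them below are therefore not independent of that choice, and describe them only.

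Where an age had no array well above background, the size is given as a bound. The mean Cy3 level of the brighter age, after loess and Aquantile scaling, was set against the lowest level called well above background on each array of the dimmer age, or the probe's own level if higher. The bounds thus concern the Cy3 level, while each adjusted p beside them tests the log2 ratio. Z00075665-1 was at least 2.29-fold lower at P14 (adjusted p = 0.000445, limma). Its Cy3 level was 215 at P10 against a bound of 93.9, with a measured level of 70.9. It was also well above background on all 3 knockout arrays of P10 and on none of P14 or P31 in either genotype. Its sequence holds AATAAA as well, and its call was kept in all 20 alternatives. Among these is Aquantile scaling between arrays, which leaves the log2 ratios unchanged.

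Z00021599-1 was at least 2.25-fold lower (adjusted p = 0.0133) and Z00061922-1 at least 2.09-fold lower (adjusted p = 0.0194). Each of them was above background on all 3 knockout arrays of P10 and on none of P14. Of the 3 wild-type arrays of P31, 1 detected Z00061922-1 and none detected Z00021599-1. Both calls were lost without P10 replicate 2 and without P14 replicate 3, and that of Z00021599-1 also without P10 replicate 3. In the other direction, Z00023518-1 rose by 1.08 in the log2 ratio (adjusted p = 0.0427), and its Cy3 level was 265 at P14 against a bound of 101 at P10. Z00030145-1 was at least 1.53-fold higher at P14 (adjusted p = 0.0168) and Z00039981-1 at least 1.47-fold (adjusted p = 0.0316). All 3 were also above background on every wild-type array of P31 and every knockout array of P14. At P10, however, 2 of 3 knockout arrays detected Z00023518-1 and 1 detected Z00039981-1, while none detected Z00030145-1. The call of Z00023518-1 was lost when any one of the 6 arrays other than P14 replicate 1 was left out, that of Z00030145-1 without P10 replicate 2 or P14 replicate 1 or 3, and that of Z00039981-1 without any one of the 6. The reference was well above background on all 6 arrays for Z00021599-1. It was so on 2 for Z00023518-1, whose Cy5 change was 1.85, on 1 for Z00039981-1 and on none for Z00075665-1, Z00061922-1 and Z00030145-1. Apart from Z00021599-1, the tested ratios thus rest on a reference near background.

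Probes that share sequence offered a view of transcripts read more than once. Probes were joined when they had at least 30 aligned bases, without gaps, at 80% identity or more on the same strand. Of such groups, 653 had at least 2 tested probes, 1473 probes in all. The counts below stand beside 7.84% of all tested probes that passed in either direction. In 43 groups 2 or more probes passed, all higher in 16 groups and all lower in 27, and in none did probes pass in both directions. Among the 526 pairs of tested probes that were identical over at least 30 bases, the median difference of their changes was 0.05 on the log2 scale, 36 pairs passed together in the same direction, 24 had 1 member that passed, and none passed in opposite directions. Such probes can bind the same transcript or near-identical copies of a gene, so they are repeated readings and not independent changes, and which copy gave the signal is uncertain. Probes on different parts of a transcript need not share sequence, so separate groups can read the same transcript too. The groups are therefore not counted as separate transcripts.

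In 5 groups at least 3 probes passed, and they were chosen for description by that count. They are called A to E here, and each of their calls was lost with median centring in place of loess. The sequences of 4 of them follow, with capitals on the longest run of letters that a probe has in common with another of its group. Group A had 10 probes on the array, of which 7 were tested.

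Z00060565-1: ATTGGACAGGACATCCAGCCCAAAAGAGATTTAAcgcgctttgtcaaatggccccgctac
Z00060549-1: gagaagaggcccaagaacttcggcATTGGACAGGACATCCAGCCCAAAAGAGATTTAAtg
Z00060623-1: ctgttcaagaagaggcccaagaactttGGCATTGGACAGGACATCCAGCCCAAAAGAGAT
Z00060552-1: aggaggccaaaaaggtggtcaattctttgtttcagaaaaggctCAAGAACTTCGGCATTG

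In group A 6 of the 7 fell, against 5.04% of all tested probes, by 1.08 to 0.78 on the log2 scale. Z00060565-1 stood at -1.88, -1.55 and -1.48 at P10 and at -2.47, -2.62 and -3.07 at P14 (change -1.08, SE 0.241, adjusted p = 0.0121, limma). The member that did not pass, Z00060552-1, has a longest shared run of 17 letters, against 22 to 34 in the others, and its value was -0.27 (SE 0.155, adjusted p = 0.232). In the Cy5 channel the changes of group A ran from -0.44 to 0.54, and in Cy3 alone from -0.54 to -1.01. For Z00060565-1 they were 0.54 in Cy5 and -0.54 in Cy3. Its call and that of Z00060729-1 were lost in Cy3 alone. Without P14 replicate 3 all 6 calls of group A were lost, and without P10 replicate 2 or 3 each was lost but that of Z00060453-1, and the adjusted p over all alternatives reached 0.30.

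Group B had 9 probes, of which 7 were tested.

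Z00060528-1: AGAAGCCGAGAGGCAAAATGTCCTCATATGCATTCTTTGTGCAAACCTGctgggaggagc
Z00060561-1: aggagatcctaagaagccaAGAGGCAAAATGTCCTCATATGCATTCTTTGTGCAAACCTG
Z00060476-1: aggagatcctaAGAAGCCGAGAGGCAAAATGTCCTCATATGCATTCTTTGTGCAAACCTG
Z00058692-1: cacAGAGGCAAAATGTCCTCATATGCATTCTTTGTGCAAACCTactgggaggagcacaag
Z00058080-1: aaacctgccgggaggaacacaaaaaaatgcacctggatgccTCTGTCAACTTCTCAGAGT

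The 4 probes of group B on the stretch AGAGGCAAAATG fell nearly alike, by 1.26, 1.25, 1.23 and 1.21 on the log2 scale. Z00060528-1 read -1.43, -0.76 and -1.27 at P10 and -2.59, -2.16 and -2.49 at P14 (SE 0.204, adjusted p = 0.00225, limma), and the ages did not overlap. Of the other members, Z00060757-1 and Z00032201-1 fell by 1.03 and 0.59, and Z00058080-1 had a value of -0.60 (adjusted p = 0.0519). The 4 probes kept their call when any single array was left out, but lost it with median centring. In Cy3 alone they changed by -1.27, -1.11, -1.03 and -1.09. The calls of Z00060757-1 and Z00032201-1 were lost in Cy3 alone.

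Group C had 7 probes, of which 5 were tested and 4 fell, against 5.04% of all tested probes, by 1.08 to 1.30 on the log2 scale.

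Z00060651-1: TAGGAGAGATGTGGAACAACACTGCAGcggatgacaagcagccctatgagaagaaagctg
Z00027452-1: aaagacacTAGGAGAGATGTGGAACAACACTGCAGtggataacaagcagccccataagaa
Z00063609-1: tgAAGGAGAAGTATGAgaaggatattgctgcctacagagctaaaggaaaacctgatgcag
Z00053305-1: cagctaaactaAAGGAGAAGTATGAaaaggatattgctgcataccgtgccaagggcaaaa

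Z00060651-1 fell from -1.69, -1.01 and -1.27 to -2.73, -2.37 and -2.76 (change -1.30, SE 0.220, adjusted p = 0.003, limma). The calls of Z00060651-1, Z00027452-1 and Z00063609-1 held whichever array was left out, and that of Z00053305-1 was lost without P10 replicate 2 or 3 or P14 replicate 3. Each of these calls was lost with median centring, and that of Z00027452-1 also in Cy3 alone. In Z00053305-1 the values were -3.29, -2.76 and -2.53 at P10 and -3.94, -3.94 and -4.13 at P14. The probe that did not pass, Z00060527-1, had a value of -0.62 with overlapping ages (adjusted p = 0.114). Over groups B and C alike, P10 replicate 2 was the highest array, with group means of -0.72 and -1.19. Whether groups B and C read the same transcript was not determined.

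Group E had 5 probes, of which 4 were tested and 3 fell, against 5.04% of all tested probes.

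Z00060546-1: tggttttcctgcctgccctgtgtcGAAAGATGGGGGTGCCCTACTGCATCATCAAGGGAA
Z00060624-1: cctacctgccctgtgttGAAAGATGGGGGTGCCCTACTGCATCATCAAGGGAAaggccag

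Z00025753-1, Z00033071-1 and Z00060546-1 of group E fell by 0.95, 0.89 and 0.83 on the log2 scale, and Z00060624-1 had a value of -0.70 (adjusted p = 0.0689). These calls were lost in the Cy3 channel alone, where the values of the 3 probes were -0.47, -0.39 and -0.32, while those in the Cy5 channel were 0.46, 0.49 and 0.47. They were also lost without P10 replicate 2 or 3 or P14 replicate 3.

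In group D 3 of the 4 tested probes rose, against 2.79% of all tested probes, and the group was chosen by that count. Z00075806-1 rose from 2.86, 2.92 and 2.98 to 4.01, 4.04 and 3.89 (change 1.06, SE 0.187, adjusted p = 0.00385, limma), with an SD of 0.06 and 0.08 within the ages. Z00023131-1 and Z00031180-1 rose by 0.87 and 0.67, and Z00031086-1 had a value of 0.21 (adjusted p = 0.377) with overlapping ages. For Z00075806-1 and Z00023131-1 the Cy5 channel changed by 1.32 and 1.23, and neither passed with the scanner software's log ratio. Z00075806-1 passed whichever array was left out, but not with median centring. Z00023131-1 was lost without any one of the 6 arrays, and Z00031180-1 without P10 replicate 2 or 3 or P14 replicate 1 or 3. The call of Z00031180-1 was also lost in Cy3 alone.

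With all 5 groups set side by side in the knockout, whose arrays are separate, the changes of groups A, B, C and E were smaller in size for each of their 23 probes. They ran from -0.09 to -0.85 there against -0.27 to -1.30 in the wild type, on which the groups were chosen. These probes are not independent readings, within a group or between groups. In group D, Z00075806-1 and Z00031180-1 were smaller in the knockout, at 0.92 and 0.47, whereas Z00023131-1 and Z00031086-1 were larger, at 1.12 and 0.26 against 0.87 and 0.21. No probe of these groups passed the test of the difference between the genotypes.

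Base composition differed between the rises and the falls. The median GC content of the probes was 46.7% for the rises, 43.3% for the falls and 45.0% for all tested. When the tested probes were ordered by GC content and divided into 5 equal parts, the median change went from -0.07 in the part lowest in GC to 0.15 in the highest. Rises made up 1.41% of the lowest part and 4.49% of the highest, and falls made up 5.04% and 2.77%. In Cy3 alone the medians of these parts were -0.17 and 0.24, in the Cy5 channel 0.001 and 0.05, and in the knockout -0.08 and 0.11. The part of base composition in the calls was not tested. The letters AATAAA were present in 11.4% of the rises and 5.0% of the falls, against 7.94% of all tested probes and 6.93% of all probes of the array, as read on the printed strand only.

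Collagen chains repeat glycine at a regular spacing, and glycine codons begin with GG. Probes were therefore searched on the printed strand for the letters GG every 9 bases along the whole probe, starting at any of its first 9 bases. There were 9 such probes on the array, of which 6 were tested. Of these, 2 fell and none rose, against 5.04% and 2.79% of all tested probes, and all 6 values were below 0 with a median of -0.31, against 0.01 over all tested probes. With 6 probes, taken up after values were seen, nothing is read from this count. The letters are a description, and which genes these probes read was not determined.

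A few probes could be placed in the genome, where all 60 bases matched the RefSeq promoter windows of GRCm38.p6 (250 bases before to 50 after a gene's start). Of 257 probes placed at 1 position, 130 lay within the span of a single gene on its own strand, and 74 of these, in 70 genes, were tested. Their median change was 0.26, and 1 passed (1.35% against 7.84% of all tested). That probe, Z00024971-1, lies at chr15:10978653-10978712 on the plus strand within C1qtnf3, which encodes a secreted protein of the C1q and tumour necrosis factor related family. The window it matched is that of another gene, Gm52174, so it was assigned by the span of C1qtnf3 and not by its start. Exon and intron are not given in the table used. It read 1.92, 1.78 and 2.13 at P10 and 1.28, 0.92 and 0.96 at P14, without overlap, and fell by 0.89 on the log2 scale (SE 0.183, adjusted p = 0.00867, limma).

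The C1qtnf3 probe was at 0.27 ± 0.30 (SD, n = 3) at P31, and the knockout went from 2.11 ± 0.29 at P10 to 1.07 ± 0.17 (SD, n = 3) at P14. Its Cy5 channel changed too, by -0.94 against -1.38 in Cy3 alone, and its call was lost with an offset of 0, the scanner software's log ratio, Cy3 alone and the deposited values. Among the placed probes that did not pass, Ndufa9, a subunit of the respiratory complex I, had a value of -0.18 (adjusted p = 0.204) and S100a7a, an epidermal alarm protein of the S100 family, one of 0.22 (adjusted p = 0.350). These were the only placed probes whose gene stood on one of the prepared lists. The Ndufa9 probe, too, matched the window of another gene, 1700018A23Rik.

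The age change was compared with that of the FoxA1 knockout, which asks whether wild-type skin passed through these days differently. In the knockout 1333 of the same 23807 probes passed (5.60%), 509 higher (2.14%) and 824 lower (3.46%). The set was filtered on detection in the wild type alone, so probes detected only in the knockout are absent from it. The same limit on the knockout arrays of these ages held for 24779 probes. The median change over the 665 wild-type rises was 0.73 in the wild type and 0.58 in the knockout, and over the 1201 falls it was -0.77 and -0.61. The probes were chosen on the wild-type arrays, so these medians are not compared by a test. For the difference itself, 1 probe passed (0.0042%), and 598 (2.51%) had an unadjusted p under 0.05. Among the 1866 probes of the wild-type comparison, 107 (5.73%) had an unadjusted p under 0.05 for it. They were chosen for their wild-type change, which is itself part of this difference. Their share therefore cannot be compared with that of all tested probes.

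That probe, Z00026330-1, read 1.89, 2.06 and 2.76 in the wild type at P10 and 0.55, 0.65 and 0.18 at P14, where 1 of 3 arrays was well above background. On the 9 knockout arrays it was never well above background, with log2 ratios between -0.24 and 0.04. The wild type fell by 1.78 on the log2 scale (SE 0.176, adjusted p = 0.00014, limma), and the difference from the knockout was -1.82 (adjusted p = 0.0363), which rests on values at background in the knockout. With the knockout at background from P10 on, a fall could not be seen there, so this difference restates the wild-type change. The reference was well above background on 1 of the 6 wild-type arrays of P10 and P14, with a Cy5 change of 0.93. At P31 the wild-type arrays were not above background either, at -0.03 ± 0.13 (SD, n = 3).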

How the data were processed

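Two-colour Agilent arrays (NIA Mouse 44K v3.0) were scanned by the authors, and the deposited files hold spot brightness and background as intensity, made with Agilent Feature Extraction 9.5.1.1 per the file headers. Per the labels, skin RNA was labelled with Cy3 and reference RNA with Cy5 throughout, and dyes were not swapped. The deposited files also hold a log10 ratio of reference over skin, and other values (spot marks of 0 or 1). The authors also deposited a log10 value table of 25030 probes with column medians between 2.42 and 2.48. After centring on each probe's mean it differed from the turned log10 ratio by a median of 4.3e-05 and at most 0.049, so it holds skin over reference plus a constant per probe. How that constant was made stays unknown.

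Mean brightness was corrected by normexp (offset 50), normalized by loess within arrays and expressed as the log2 ratio of skin to reference in limma 3.58.1 (R 4.3.3). Outlier spots were set to missing, which left out 16 of the 23823 probes. One linear model with 6 group means was fitted to 18 arrays (12 residual degrees of freedom, eBayes), with Benjamini-Hochberg adjustment over 23807 probes and a call at an adjusted p under 0.05 and a fold over 1.5. limma's p values are two-sided. An exact permutation test of 3 against 3 arrays cannot go below 0.10, so none was used. The number of arrays limits the precision. The labels name separate animals but not litters.

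Probes described singly were the 5 largest changes in each direction that passed, were well above background on all 6 arrays and did not overlap, and up to 3 in each direction detected at 1 age only. Sequence groups came from BLAST 2.17.0, and the 5 groups, the placed probe and the glycine repeat were taken up after values were seen. The rule, the lists and the members were chosen with earlier results of these data known. Replicate numbers were checked as pairs: the deviations of same-numbered arrays correlated at -0.19, 0.09 and -0.40, so they were not treated as pairs. The fit was tested on simulated data. Gene names came only from RefSeq promoter windows and gene spans of GRCm38.p6, for the few probes that matched them.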

Additional observations from a re-analysis of the deposited data

Results flagged for a closer look

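One result was taken out for a closer look because it passed the test of the difference in age change between the genotypes. The knockout was at background at P10 already, so that test cannot show a different age course. In the wild type probe Z00026330-1 fell between P10 and P14, while all 9 knockout arrays were at background, with an adjusted p of 0.0363 for the difference (limma, over 23807 probes). No probe passed that test with an offset of 0 or with replicate numbers blocked. It passed for 1 probe with the scanner software's log ratio and with slide as a random effect. Groups of 3 arrays are too small for a test of single outlying arrays.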

How the results depend on the processing

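The count of 1866 probes stayed within 1.5 times in 12 of 17 alternatives that kept all 6 arrays. Among the 12, Aquantile scaling between arrays leaves the log2 ratios unchanged, so its count was fixed beforehand. A similar count can also hold other probes. Cy3 alone gave 1993, of which 1023 were among the 1866, and the deposited table gave 1752 of 15404 tested, of which 1034 were. The count became 2826 with the scanner software's log ratio, 184 with median centring in place of loess, 3067 with array quality weights, 3378 with no fold limit and 342 with a fold limit of 2. Leaving out 1 array gave 524 to 2806. With the replicate number as a block, though the numbers pair nothing, it was 1976 (659 higher and 1317 lower), and the single probe of the difference between genotypes became 0, as with an offset of 0. With slide as a random effect it was 2002. Over 39 single probes (the rule's probes, the placed probe and the called probes of groups A to E), 661 of 793 values kept their call, 132 lost it and none reversed. The values that kept their call include those with Aquantile scaling, which could not differ. Of the 10 largest changes, Z00039540-1, Z00034035-1, Z00074237-1, Z00030864-1 and Z00030171-1 kept their call in every alternative run, and Z00036428-1, Z00026161-1 and Z00027115-1 lost it with median centring alone. Only 280 probes passed in every fit but median centring and the deposited table, and 80 with median centring too. Why median centring loses calls was not tested. The alternatives for gene lists could not be run, since the scanner files name no gene and 2 placed probes stood on a list. Slide and age cannot be told apart, and dim probes near background set the limit for detection.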
